A study of Mus musculus with 5 samples.

Results

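Snap25, Stx1a, Vamp2, Unc13a, Unc13b, Cplx1, Cplx2 and Scgn encode proteins that prepare secretory vesicles for release and fuse them with the plasma membrane. These 8 of 22380 protein-coding genes were taken by name, and a gene was given every REST peak inside its body or within 50 kb of its start. The 5 peak lists together held 1860 sites, and 5 of them were at these genes, 1 each at Snap25, Unc13a, Cplx1, Cplx2 and Scgn. No list held a peak at Stx1a, Vamp2 or Unc13b.

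REST binding was measured by ChIP-seq in whole pancreas of untreated wild-type mouse embryos on a mixed background that included C57BL/6, with the mouse monoclonal antibody 12C11. Stages are given in embryonic days. The E13.5 stage had 2 libraries made from pools of 4 to 6 pancreases, and the E18.5 stage had 3 libraries made from pools of 3 to 4. The libraries of a stage are called biological replicates and are named here by stage and letter, and a letter shared by both stages does not tie 2 libraries together. The organ was used whole, so the cell types behind a peak are not known, and fewer bound cells cannot be told apart from less binding per cell.

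The E13.5 A and B lists held 1400 and 1333 peaks, and the E18.5 A, B and C lists held 541, 417 and 226. No read totals were used, which leaves the sequencing depth unknown, and a missing peak means that none was called rather than that binding was absent. Each peak carries a score given by the authors on a scale that the sources used here do not name. Scores were therefore turned into percentile ranks among the peaks of the same list, with 100 at the top.

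In neurons and in endocrine cells, syntaxin 1A (Stx1a) and SNAP25 on the plasma membrane pair with VAMP2 on the vesicle, and the zippering of these SNARE proteins drives fusion. Munc13 proteins (Unc13a, Unc13b) prime docked vesicles by helping the SNAREs assemble. Complexins (Cplx1, Cplx2) bind the assembled SNAREs and regulate fusion triggered by calcium, and secretagogin (Scgn) is a calcium-binding protein abundant in islet cells. REST is a zinc-finger repressor that binds a DNA element called RE1, which has a left and a right half-site, and it is best known for keeping neuronal genes silent outside neurons.

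The RE1 elements under the 5 peaks are shown because they differed in how the half-sites were placed. The consensus was learned from 300 of the highest-scoring E13.5 B peaks that were not at the 8 genes. It is 21 bp long, with a left half-site of 9 bases, 2 bases between, and a right half-site of 10 bases. Sequences are read 5′ to 3′ on the element's strand unless stated and come from the mm9 genome. Capitals mark the whole element for Snap25 and Scgn and the 2 half-sites for the others.
RE1 consensus: TTCAGCACCACGGACAGCGCC
Snap25: acctTTCAGCACCGCGGACAGCGATccgg
Scgn: ccacATCAGCACCATGGACAACGCAcgca
Unc13a: cTTCAGCACCgggggcgcGGACAGCGCCt
Cplx1: tTTCAGCACCtcacgatGGACAGCGCCt
Cplx2 (plus strand): tGGTGCTGAAgGGACAGCTCCc

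Snap25 and Scgn carried the element at its usual spacing of 2 bases. Unc13a and Cplx1 carried both half-sites without a mismatch and in their usual order, but with 8 and 7 bases between them. At Cplx2 the left half-site lay on the opposite strand from the right one, so that the 2 half-sites ran away from each other with 1 base between. The Cplx2 site also held a match at the usual spacing, of 13.7 bits, that used the same left half-site. The opposite-strand pair was looked for after the sequence had been seen and was given no score.

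All 5 sites were close to the start of their gene, at or downstream of it. The centre of the joined site was 868 bp from the start for Snap25, 31 bp for Unc13a, 324 bp for Cplx1, 411 bp for Cplx2 and 187 bp for Scgn. Among the 1186 sites called in both E13.5 libraries, 187 (15.8%) were within 1 kb of a protein-coding start, and 121 of those (64.7%) were at or downstream of it. No other protein-coding start was nearer to any of the 5 sites. The next start was 176.90 kb away at Snap25, 80.04 kb at Cplx1, 97.09 kb at Cplx2 and 56.56 kb at Scgn. Unc13a was the exception, with the start of Jak3, a cytokine receptor kinase gene, at 4.57 kb and the starts of 4 other protein-coding genes, Jak3 included, within 50 kb.

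Both E13.5 libraries had a peak at 5 of the 8 genes, which is 62.5%, while 7.83% of all protein-coding genes had one in E13.5 A and 7.57% in E13.5 B. The E18.5 A list had 4 of the 8 (3.27% of all genes), E18.5 B had 5 (3.05%) and E18.5 C had 3 (1.97%). A site called in both E13.5 libraries was present at 5 of the 8 genes and at 6.89% of all genes. A site called in at least 2 E18.5 libraries was present at 4 of the 8 and at 2.2% of all genes, and a site called in all 5 libraries at 3 of the 8 and at 1.03% of all genes. The median search window was 100 kb for the 8 genes and for all genes. The 8 genes were proposed with earlier results of these data known, so these shares carry no test.

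**Figure D1:**
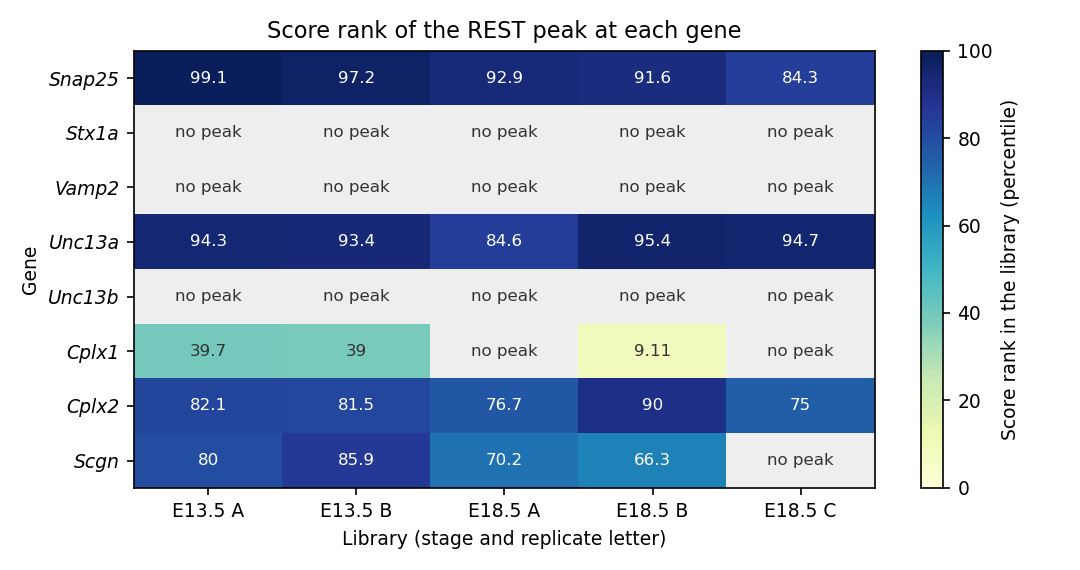
Score rank of the REST peak at each of the 8 genes (vertical axis) in each of the 5 libraries (horizontal axis), as a percentile within the library where 100 is the highest score, with darker cells for higher ranks and grey cells where no peak was called. Snap25, Unc13a and Cplx2 have a value in all 5 columns, Scgn in 4, Cplx1 in 3, and Stx1a, Vamp2 and Unc13b in none.

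Among the SNAREs, Snap25 had the strongest site of the 8 genes at E13.5. Snap25 lies on the plus strand of chromosome 2 (chr2:136539189-136608164). Its peak scored 54 in E13.5 A, 56 in E13.5 B, 16 in E18.5 A, 15 in E18.5 B and 21 in E18.5 C. The corresponding ranks were 99.1, 97.2, 92.9, 91.6 and 84.3, so the peak was near the top of every list. It was number 13 of 1400 in E13.5 A and number 37 of 1333 in E13.5 B, and its mean E13.5 rank of 98.2 placed it 25th of the 1186 sites called in both E13.5 libraries. Ranks at E18.5 were all below those at E13.5, but the E18.5 lists are shorter, and ranks in lists of unequal length are not on the same footing.

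The Snap25 element (chr2:136540074-136540094) was in an intron, 895 bp downstream of the start and on the gene's own strand. It scored 26.2 bits of a possible 33.6 and differed from the consensus at 3 positions, A10G, C20A and C21T, counted from 1 at the 5′ end. Its centre was 6.5 to 31.5 bp from the centres of the 5 peaks. A second, weaker match of 17.8 bits lay 845 bp downstream of the start (chr2:136540024-136540044).

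Stx1a (chr5:135499352-135526970) and Vamp2 (chr11:68901992-68905886), the partners of SNAP25 in the fusion complex, had no called peak. The nearest site to Stx1a was 478.4 kb from its start and belonged to the neighbourhood of Clip2, whose start was 7.4 kb from it. The nearest to Vamp2 was 132.6 kb away, was called in E18.5 A alone, and lay 1.6 kb from the start of Arhgef15. Within the Stx1a window the best RE1 match was in the 3′ UTR, 27.1 kb downstream of the start (chr5:135526475-135526495), and was above the limit of 12.6 bits, the highest score among control windows. The Vamp2 window held no element above that limit. A weak element is common, since 12344 of 22380 protein-coding genes (55.2%) had at least 1 above that limit in their window, and 1054 of 15429 such elements in the genome (6.83%) were inside a site called in both E13.5 libraries.

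Of the priming factors, Unc13a was bound in every library. Unc13a lies on the minus strand of chromosome 8 (chr8:74150614-74195656), and its peak covered the start of the gene in all 5 lists. Its score was 34 in E13.5 A, 41 in E13.5 B, 11 in E18.5 A, 22 in E18.5 B and 29 in E18.5 C. These scores ranked 94.3, 93.4, 84.6, 95.4 and 94.7, so that only the E18.5 A value was under 90. It was number 18 of 417 in E18.5 B and number 13 of 226 in E18.5 C, ahead of Snap25 in both.

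The Unc13a element (chr8:74195626-74195652) was in the 5′ UTR, 17 bp downstream of the start, on the strand opposite to the gene. At the usual spacing the best score under this peak was 4.4 bits, which is below the limit of 8.6 bits that 99 of 100 control windows stayed under. With 8 bases between the half-sites it scored 31.4 bits, against a limit of 17.5 bits for such split elements. A match of 17.0 bits at the usual spacing lay at -12.8 kb from the start (negative is upstream), where no library had a peak.

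Unc13b (chr4:43071825-43277745), the other priming factor measured, had no called peak although its search window of 255.9 kb was the longest of the 8. The nearest site was 113.5 kb from its start, was called in both E13.5 libraries, and lay 4.3 kb from the start of Dnajb5. An intron of Unc13b held an RE1 match of 15.9 bits 53.1 kb downstream of the start (chr4:43124895-43124915), where no library had a peak.

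**Figure D2:**
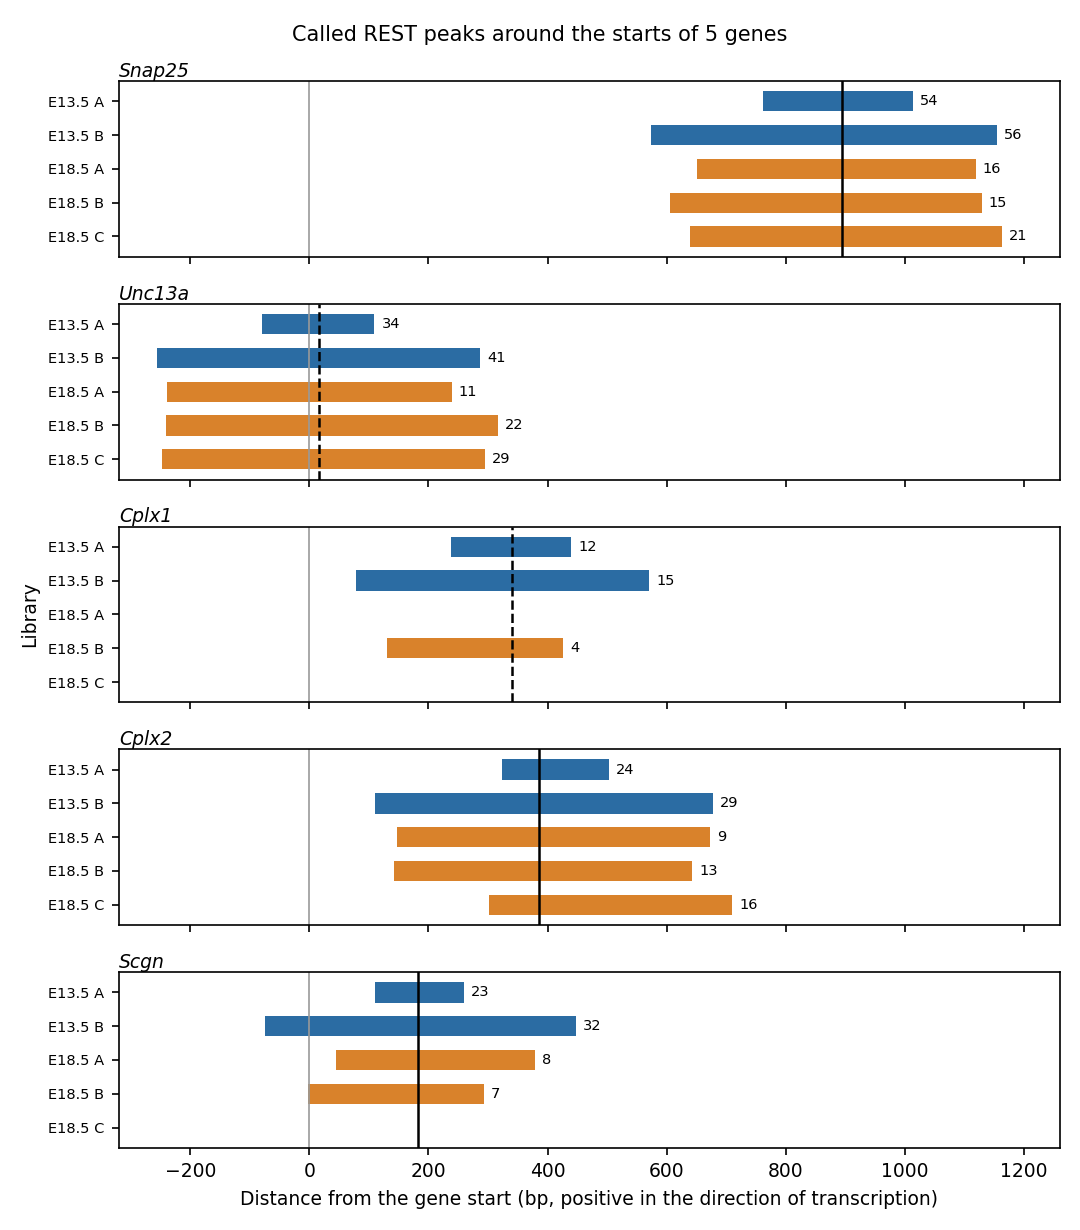
Called REST peaks (bars, blue for E13.5 and orange for E18.5, with the authors' score beside each) against distance from the gene start in bp along the direction of transcription, for the 5 genes with a site. The grey line is the gene start, a solid black line the centre of the best element at the usual spacing and a dashed black line the centre of a split element, and each line of an element crosses every bar drawn in its panel.

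The 2 complexin genes differed. Cplx2 (chr13:54472713-54485278, plus strand) had a peak in all 5 libraries. Its score was 24 in E13.5 A, 29 in E13.5 B, 9 in E18.5 A, 13 in E18.5 B and 16 in E18.5 C, and the ranks were 82.1, 81.5, 76.7, 90 and 75. Cplx1 (chr5:108947573-108979043, minus strand) scored 12 in E13.5 A and 15 in E13.5 B, with ranks of 39.7 and 39, and it was called again only in E18.5 B, with a score of 4 and a rank of 9.11. The Cplx1 peak was thus below the middle of both E13.5 lists and near the bottom of the only E18.5 list that held it. Of the 123 sites called in both E13.5 libraries whose mean rank was within 5 percentile points of that of Cplx1, 21 (17.1%) were called in 1 or more E18.5 libraries.

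The Cplx1 element (chr5:108978689-108978714) was in an intron, 341 bp downstream of the start and on the strand opposite to the gene. It scored 7.2 bits at the usual spacing, below the limit, and 31.4 bits with 7 bases between the half-sites, the same split score as at Unc13a. The ranks of the 2 peaks were far apart, 39.7 and 39 at Cplx1 against 94.3 and 93.4 at Unc13a in the E13.5 libraries. Over the 968 E13.5 sites with a match at the usual spacing, element score and peak rank had a Spearman correlation of 0.34. Cplx1 and Unc13a are not among these sites. The matrix was learned from high-ranked E13.5 B peaks, so the correlation is in part built in.

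Under the Cplx2 peak the best score at the usual spacing was 13.7 bits, at an element in an intron 385 bp downstream of the start (chr13:54473088-54473108, minus strand). This element had the whole left half-site but differed from the consensus at G12A, A14C, C15G, C20G and C21G, all in the right half-site. Elements that score at least this high are not selective on their own, since 1035 of 10228 in the genome (10.1%) were in a site called in both E13.5 libraries. The same left half-site also formed a pair with a right half-site on the other strand (chr13:54473100-54473119), which is the arrangement shown above.

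Scgn (chr13:24045325-24083083, minus strand), the calcium sensor, had a peak in 4 libraries. The score was 23 in E13.5 A, 32 in E13.5 B, 8 in E18.5 A and 7 in E18.5 B, with ranks of 80, 85.9, 70.2 and 66.3, and no peak was called in E18.5 C. That is the shortest list, with 226 peaks. The Scgn element (chr13:24082891-24082911) was on the gene's own strand, 182 bp downstream of the start, and scored 20.9 bits with 4 differences, T1A, C11T, G17A and C21A. It lay over the first codon: the A of the start codon (position 24082902) was base 10 of the element. Of the 5 elements it was the only one in coding sequence. Its centre was 3.5 to 37 bp from the peak centres. Weaker matches of 13.7 and 13.3 bits, 47.2 and 25.3 kb downstream of the start, had no peak in any library.

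The half-site arrangements could be set against the rest of the series. A match at the usual spacing was present in 500-bp windows on 968 of 1183 sites called in both E13.5 libraries (81.8%) and in 19 of 1839 control windows 10 kb away (1.03%). The Snap25 score was above 71.4% of these E13.5 sites, that of Scgn above 35.6% and that of Cplx2 above 22.1%. Of the 215 sites with no such match, 156 (72.6%) held a split element, and in 99 of those 156 (63.5%) the half-sites were 7 to 9 bases apart, the range that includes Unc13a and Cplx1. The limit of 17.5 bits for split elements was passed by 19 of 1839 control windows (1.03%). With both kinds counted, 1124 of 1183 sites (95%) had an element, and no control rate for both kinds together is given here.

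**Figure D3:**
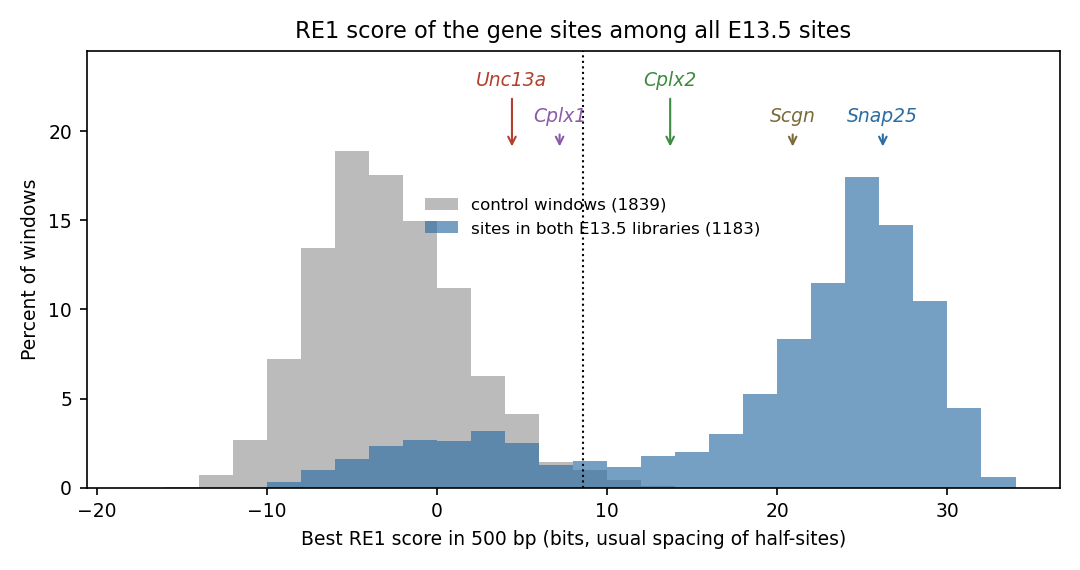
Best RE1 score in bits at the usual spacing (horizontal axis) as a percent of windows (vertical axis) for sites called in both E13.5 libraries (blue) and control windows (grey), with the limit of 8.6 bits as a dotted line. Arrows mark the 5 gene sites: Snap25 at 26.2, Scgn at 20.9 and Cplx2 at 13.7 bits are above the limit, Cplx1 at 7.2 and Unc13a at 4.4 bits below it.

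A search of the whole genome for pairs of half-sites with at most 1 mismatch each gave the share of such pairs that were bound. With 2 bases between them, 212 of 256 pairs (82.8%) were in a site called in both E13.5 libraries. At 7 bases, as in Cplx1, this held for 21 of 30 pairs (70%), and at 8 bases, as in Unc13a, for 35 of 56 (62.5%). The Cplx1 and Unc13a pairs are themselves counted in these shares. The half-sites come from the consensus learned on E13.5 B peaks, so the shares are not independent of these libraries. The neighbouring spacings of 9, 10 and 11 bases gave 23 of 39 (59%), 13 of 32 (40.6%) and 5 of 17 (29.4%). Spacings of 0 and 1 base gave 7 of 12 (58.3%) and 7 of 20 (35%). None of 57 pairs with 3 to 6 bases between them was in such a site, and 3 of 79 (3.8%) with 12 to 20 bases were.

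Pairs on opposite strands, arranged as in Cplx2, were in a site called in both E13.5 libraries in 17 of 24 cases (70.8%) when 1 base lay between the half-sites. With 0 bases between them this held for 6 of 24 pairs (25%), and with 2 bases for 7 of 14 (50%). How many of these pairs lie in a site that also has a match at the usual spacing, as at Cplx2, is not given here. Over all spacings from 0 to 20 bases the count was 32 of 235 (13.6%). When the half-sites ran toward each other instead, it was 7 of 183 (3.83%). The opposite-strand search was made after the Cplx2 sequence had been seen, the 17 cases include the Cplx2 pair itself, and the shares describe these 2 libraries.

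**Figure D4:**
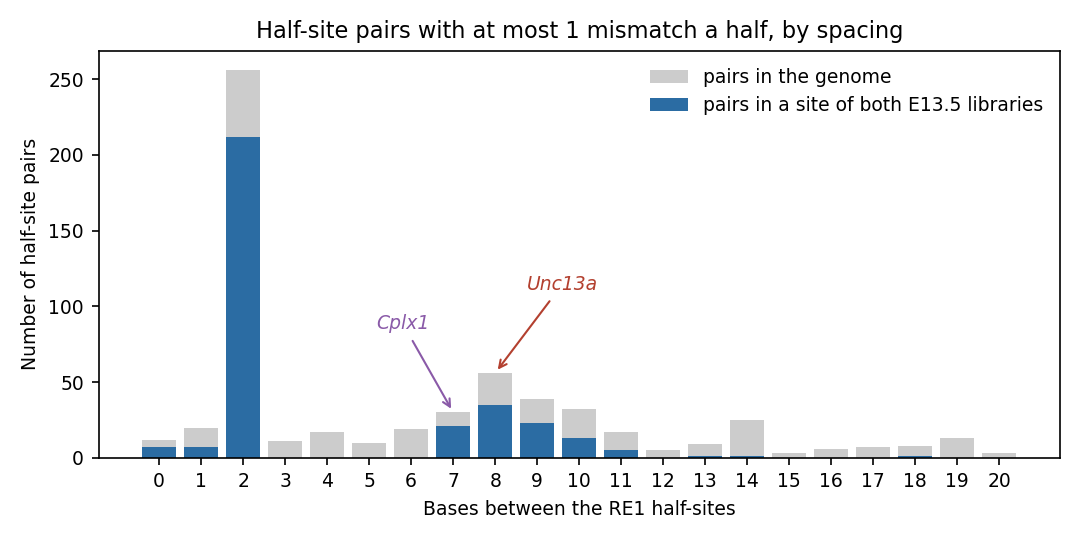
Number of half-site pairs in the genome (grey bars) and of those in a site called in both E13.5 libraries (blue bars drawn over the grey) against the number of bases between the half-sites, for pairs on the same strand in the usual order with at most 1 mismatch in each. Bars rise at 2 bases (212 of 256 pairs bound) and again around 7 to 9 bases (79 of 125), where the Cplx1 and Unc13a pairs are marked.

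The 5 windows were rich in G and C. In 500 bp on the site centre the G and C content was 57.6% at Snap25, 65.6% at Unc13a, 60.8% at Cplx1, 69.8% at Cplx2 and 55.8% at Scgn, with 24, 47, 32, 36 and 25 CpG dinucleotides. The median over the sites called in both E13.5 libraries was 49.8% with 7 CpG, and over those within 1 kb of a start it was 60.8% with 26 CpG. The 5 windows lay on both sides of that second median in G and C content and were all above the first.

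The comparison of stages asks whether REST sat at these genes both in the early organ, rich in progenitors, and near birth. An E13.5 library had a peak at 5 ± 0 of the 8 genes (mean and SD, n = 2), and an E18.5 library at 4 ± 1 (n = 3). For this difference of 1 gene an exact two-sided permutation test over libraries gave p = 0.6. The test cannot decide the question, since 2 against 3 libraries allow no p below 0.2. The peaks at the 8 genes made up 0.366% ± 0.0127 (SD, n = 2) of an E13.5 list and 1.09% ± 0.309 (n = 3) of an E18.5 list. The share was higher in all 3 E18.5 libraries than in either E13.5 library (exact permutation test, p = 0.2, the smallest that 2 against 3 libraries allow). The length of the list moved with this share, since the E13.5 lists are the longest.

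Lists of equal length removed this separation. With only the 226 highest-scoring peaks kept in each library, the count was 2 in E13.5 A (Snap25 and Unc13a), 3 in E13.5 B (with Scgn), 4 in both E18.5 A and B (Snap25, Unc13a, Cplx2 and Scgn) and 3 in E18.5 C (Snap25, Unc13a and Cplx2). The difference between stages then had the opposite sign, -1.17 genes (p = 0.4 in the same exact permutation test). The share of the list was then 0.885% in E13.5 A and 1.33% in E13.5 B, against 1.77%, 1.77% and 1.33% in E18.5 A, B and C, so that E18.5 C equalled E13.5 B. The difference in the share was -0.516 percentage points instead of -0.722 (exact permutation test, p = 0.4). With 226 peaks in every list the share is the gene count over a constant. It therefore repeats the comparison of counts and is not a second result.

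Recall of the E13.5 sites at E18.5 went with their rank. Of the 5 sites, 4 were called in at least 2 E18.5 libraries and 3 in all 3. The corresponding shares were 20.6% and 9.53% over all 1186 sites of both E13.5 libraries, and 70.7% and 42.7% over the 225 of these that ranked at or above the Cplx2 site. None of the 5 sites was missing from every E18.5 list. The share missing was 59.5% over all 1186 sites, 40.1% over those within 1 kb of a start, where all 5 lie, and 9.33% over those ranked at or above the Cplx2 site, where 4 of the 5 lie.

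Ranks of Snap25, Unc13a and Cplx2 could be compared between stages over the 113 sites called in all 5 libraries, where each list has the same length. Within this set Snap25 ranked 89.8 and 71.7 in the E13.5 libraries and 76.1, 74.3 and 72.1 in those of E18.5, and the stages overlapped (80.8 ± 12.8, n = 2, against 74.2 ± 2, n = 3, exact permutation test p = 0.8). Unc13a ranked 48.7 and 41.6 in the E13.5 libraries, against 54.4, 87.2 and 92 in those of E18.5, a difference of -32.7 percentile points, E13.5 minus E18.5 (exact permutation test, p = 0.2). Cplx2 ranked 14.2 and 17.7 in the E13.5 libraries, against 37.2, 70.8 and 56.6 in those of E18.5, a difference of -38.9 points (exact permutation test, p = 0.2). For both genes every E18.5 library was above every E13.5 library, which was the case for 14.2% of the 113 sites, while 23.9% had every E18.5 rank below every E13.5 rank. A p of 0.2 is the smallest this design can give, so neither difference could pass a threshold.

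**Figure D5:**
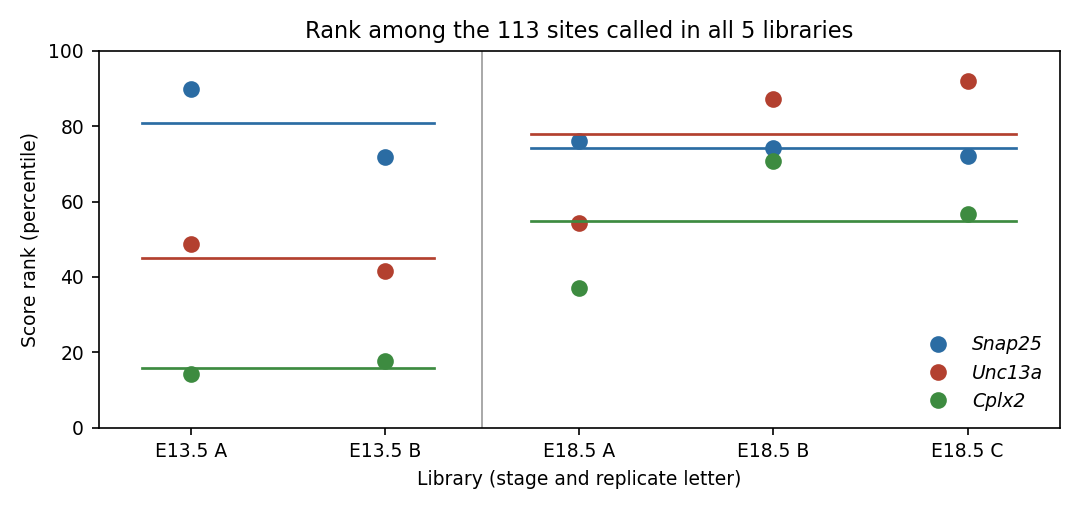
Score rank in percentiles among the 113 sites called in all 5 libraries (vertical axis) for Snap25, Unc13a and Cplx2 in each library (horizontal axis), with a point for each library and a line at the mean of the stage. Unc13a and Cplx2 are higher in each E18.5 library than in both E13.5 libraries, whereas the Snap25 points of the stages overlap.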

How the data were processed

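Single-end 50-bp ChIP-seq reads were aligned by the authors to mm9 with Bowtie2 2.2.5 allowing 1 mismatch, filtered to a mapping quality of at least 10 and used with input DNA to call peaks with MACS2 2.1.0. The submitters' notes also name SAMtools. The deposited lists, 1 per library, state duplicate removal and a false discovery rate of 10% in their names, and each peak has a position and a score made by the authors, on a scale that the sources used here do not name. The study's E13.5 set, called on pooled reads, was not used.

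Overlapping entries of a library were merged with the highest score kept (7, 2, 4, 2 and 3 entries for E13.5 A, B and E18.5 A, B, C). Peaks that overlapped by at least 1 bp were joined into sites. Genes and starts came from the GENCODE annotation for mm9, with protein-coding genes only, and coordinates count from 1. A gene's window was its body and 50 kb to either side of its start. The 21-bp RE1 weight matrix was learned by expectation maximisation from 200-bp windows on 300 E13.5 B peaks, and windows of 500 bp on site centres were searched on both strands. A match scored above 99 of 100 windows placed 10 kb away. Split elements had the 9-base and 10-base half-sites in the usual order with 0 to 20 bases between, other than 2. Stages were compared by an exact two-sided permutation test over libraries (10 arrangements). The scripts used Python 3.11.15, numpy 2.4.6, scipy 1.17.1 and pysam 0.24.0, and were tested on simulated data.

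The 8 genes and all lists were chosen with earlier results of these data known. All 8 were named, with every listed gene that had a site in both E13.5 libraries or in at least 2 E18.5 libraries. Split elements and opposite-strand pairs were added after the data were seen. Alternatives were other windows, the nearest start only, equal or shortened lists, sharing by peak centres, other match limits, leaving out each library and a replicate block.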

Additional observations from a re-analysis of the deposited data

How the results depend on the processing

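Of 41 alternative values, 1 changed sign. With the 226 highest-scoring peaks of each library, the difference in genes with a peak per library (E13.5 minus E18.5) was -1.17 instead of 1, and the number with a site in both E13.5 libraries was 2 instead of 5. That alternative removes the weaker peaks of the longer lists by construction. Counting split elements, chosen after seeing the data, raised the sites with an RE1 match from 3 to 5. With only the higher-scoring 50% of each list, the difference was 0.333 genes and, for the share of a list, -1.43 instead of -0.722 percentage points. Leaving out each library in turn gave differences of 0.5 to 1.5 genes, of -0.897 to -0.603 percentage points in the share of a list, and 3 or 4 genes with a site in at least 2 E18.5 libraries. Without E18.5 C the gene difference was 0.5, and without E18.5 B it was 1.5. With the replicate block, which sets libraries of the same letter against each other although the letters do not pair embryos, the differences were 0.5 genes (exact sign-flip test, p = 1) and -0.603 percentage points (exact sign-flip test, p = 0.5). No p fell below 0.2 under any alternative, and the design allows none. Read depth was unknown, so the absence of Cplx1 and Scgn peaks from E18.5 lists sets no limit on binding there.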

Other observations

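REST sites were also called at other genes of the secretory machinery. Of 15 further neural and endocrine exocytosis genes, 4 (26.7%) had a site in both E13.5 libraries, against 6.89% of all protein-coding genes, and none had one in at least 2 E18.5 libraries, against 2.2% of all genes, a share at which none among 15 is no departure. Stxbp5l, a syntaxin-binding tomosyn gene, had a site 67 bp downstream of its start with ranks of 33.1 and 29.5. Cplx3, a complexin gene of retina and brain, had one 62 bp downstream, with ranks of 74.8 and 84.6. Under it was a split element with 9 bases between the half-sites, 27.6 bits, in the 5′ UTR. The same site also held a match at the usual spacing, of 11.1 bits with 7 mismatches, above the limit of 8.6 bits. Cadps, a priming factor for dense-core vesicles, had one whose centre was at -893 bp from its start (negative is upstream), with ranks of 80 and 34.5 and a peak in E18.5 B at 53.4. Doc2a, a calcium sensor gene, had one at -21.8 kb, nearer to the start of 4930451I11Rik (5.59 kb).
Cplx3: TTCAGCACTaagtcccggGGACAGCTCC
In this sequence capitals mark the half-sites. At the 3 complexin genes with a site, the pair of half-sites with the fewest mismatches was in another arrangement than the usual one. The half-sites were 7 bases apart at Cplx1, 9 at Cplx3 and on opposite strands at Cplx2. This was noticed after the values were seen, and the other arrangements searched far outnumber the usual one. The Cplx2 and Cplx3 sites also held a match at the usual spacing, of 13.7 and 11.1 bits. The same share over all sites is not given here, so the pattern cannot be called particular to complexin genes.

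Of 30 broadly expressed SNARE genes and regulators found in the annotation (1 more, Vamp7, was not matched), 3 (10%) had a site in both E13.5 libraries, which is near the 6.89% of all genes. The site of Nsf, the ATPase that takes SNARE complexes apart, was 33.2 kb downstream and was called in all 5 libraries, with ranks of 90.9 and 90.5 in the E13.5 libraries, against 48.2, 53.4 and 63.9 in those of E18.5. The sites of Napa (49.4 kb) and Gosr2 (41.2 kb) were nearer to the starts of Slc8a2 and Rprml, and that of Napa also had a peak in E18.5 A (rank 61.3).

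Calb1 and Calb2, relatives of Scgn in the calbindin family, both had a site in both E13.5 libraries, as had 6.89% of all genes. That of Calb1 was 31 bp from the start with ranks of 91.9 and 77.7, and that of Calb2 was at -28.7 kb with ranks of 88.6 and 85.9, nearer to the start of Ftsjd1 (20.78 kb). Peaks were also called at the Calb1 site in E18.5 B (rank 66.3) and at the Calb2 site in E18.5 A and C (ranks 48.2 and 58.2).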
